A study of Mus musculus with 6 samples.

Results

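The 10 genes followed here belong to the endothelium of the brain and its blood-brain barrier. They are Kdr, Flt1, Tek, Eng, Cldn5, Pecam1, Slc2a1, Abcb1a, Slco1c1 and Ly6c1. The genes were chosen by name, with earlier results of these data known. Every probe set that the platform annotation assigned to 1 of these symbols alone was taken. This gave 16 probe sets for 9 of the 10 genes, of 45037 probe sets in all. Ly6c1 had none, because the probe set that carries its symbol also carries another, and only its promoter was examined.

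The arrays hold ribosome-bound RNA from the cortex of mice in which an S100a10 transgene on a bacterial artificial chromosome tags ribosomes (bacTRAP, line ES691), and all of the mice constitutively lack p11, the protein of S100a10. The FLX mice drank fluoxetine, a serotonin reuptake inhibitor, at 0.167 mg/ml in 1% saccharin, and the VEH mice drank 1% saccharin alone, both for 15 to 18 days. There were 3 arrays per group, called biological replicates 1 to 3 in the titles, and the mice had been backcrossed from FVB onto C57BL/6 for 3 to 5 generations. The sources used here give neither age nor the number of animals behind an array. The tag follows the S100a10 transgene and not an endothelial promoter, and the submitters state that it also labels some cells that are not neurons. No array of wild-type mice was analysed here.

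Endothelial cells line the vessels of the brain and form the blood-brain barrier. Claudin-based tight junctions seal the cells to each other, vascular endothelial growth factor (VEGF) and angiopoietin receptors maintain them, and membrane transporters let nutrients in and pump drugs out. p11 is known to pair with annexin A2, which on endothelial cells forms a surface receptor for plasminogen and its activator.

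In each group the replicate 3 array was unlike the other arrays. Across the 22200 probe sets tested, the replicate 3 arrays of FLX and VEH correlated with each other at r = 0.973 and with replicates 1 and 2 at 0.867 to 0.916, while the arrays of replicates 1 and 2 correlated among themselves at 0.987 to 0.995. Values of single arrays are given below in the order of replicate numbers 1 to 3. The brightest S100a10 probe set, an x_at set that can match other transcripts, ran from 349 to 2222 in FLX arrays and from 643 to 3111 in VEH arrays. The other 2 lay under 50 in every array, and since all mice lack p11 these values check no label. The log2 ratio of 3′ to 5′ control probe sets of Gapdh and Actb, which grows as RNA degrades, was 2.08 to 2.20 in FLX and 2.18 to 2.33 in VEH arrays, lower in the FLX array of each equal number. The part of RNA quality in the differences below was not tested.

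The values are normalized intensities on a linear scale, and probe sets were tested if either group mean reached 50, the minimum that the submitters advise. Of the members, 10 probe sets of 6 genes passed. Flt1, Tek and Pecam1 were under 50 in all 6 arrays with each of their probe sets. In the comparison of FLX with VEH, 0 of the 10 probe sets passed limma's threshold, an adjusted p of 0.05, and 0 had an unadjusted p under 0.05. Over all probe sets tested the share that passed was 0%, and 0.374% had an unadjusted p under 0.05. This fit counts the difference of the replicate 3 arrays as error, which widens its intervals, so it can miss differences. With the replicate number as a block, 1764 of the 22200 probe sets had an unadjusted limma p under 0.05, and 0 of the 10 did. The 0 of 10 thus does not show that the groups are alike. The groups overlapped in all 10, whereas every FLX array lay above every VEH array in 2.55% of all probe sets tested and below in 1.79%.

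Pecam1 and Tek are markers of all endothelium, so the label of the list was checked on more such genes. Of 89 further endothelial genes with a probe set, 20 were under 50 in all 6 arrays, among them Tie1, Emcn, Vwf, Cd93, Icam2, Robo4, Flt4 and Erg. Of the 63 that were tested, 48 were at 50 or above in all 6 arrays, against 19333 of all 22200 probe sets tested. Among the 48 were Cd34, Egfl7, Plvap, Ramp2, Sox17, Esam and Nos3. Cd34, a surface protein of endothelium and of some other cells, had 716, 644 and 241 across the FLX arrays, against 580, 740 and 216 across the VEH arrays. The genes named here were chosen after their values were seen. General endothelial markers were thus mixed, and the members are called endothelial and barrier genes by their rule. In RNA bound from a mixture of tagged cells, fewer cells of a type and less RNA per cell cannot be told apart.

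The promoters of 4 members are shown because these genes behaved differently across the replicate numbers. Abcb1a and Slc2a1 were lower in both replicate 3 arrays than in any other array, the brighter Eng probe set was nearly level, and Slco1c1 was low in the VEH replicate 3 array alone. The sequences are RefSeq promoters of build GRCm38.p6, from 250 bases before to 50 after the start of the gene, written 5′ to 3′ on the strand of the gene. Capitals mark the letters AGGAAG, the core bound by ETS factors, and GGGCGG, the GC box bound by Sp factors, or the reverse complement of either.
Abcb1a, chr5:8566841-8567140, plus strand: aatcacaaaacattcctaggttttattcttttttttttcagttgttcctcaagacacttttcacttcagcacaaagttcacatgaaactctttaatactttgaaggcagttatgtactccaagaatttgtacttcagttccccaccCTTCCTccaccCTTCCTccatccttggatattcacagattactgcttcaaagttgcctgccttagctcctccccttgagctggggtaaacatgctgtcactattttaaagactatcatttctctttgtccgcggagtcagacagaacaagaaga
Slc2a1, chr4:119108495-119108794, plus strand: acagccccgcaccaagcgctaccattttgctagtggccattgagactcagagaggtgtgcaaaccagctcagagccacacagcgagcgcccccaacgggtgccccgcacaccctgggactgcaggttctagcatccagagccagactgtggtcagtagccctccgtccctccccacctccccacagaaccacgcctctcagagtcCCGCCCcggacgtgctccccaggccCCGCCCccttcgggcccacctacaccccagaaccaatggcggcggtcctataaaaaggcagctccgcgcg
Eng, chr2:32646345-32646644, plus strand: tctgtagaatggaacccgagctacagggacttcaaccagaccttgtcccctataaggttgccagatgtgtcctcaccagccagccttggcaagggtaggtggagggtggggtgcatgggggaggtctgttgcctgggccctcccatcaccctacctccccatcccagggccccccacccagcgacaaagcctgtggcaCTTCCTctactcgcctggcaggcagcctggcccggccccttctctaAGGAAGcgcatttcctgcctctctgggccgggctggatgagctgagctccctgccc
Slco1c1, chr6:141524104-141524403, plus strand: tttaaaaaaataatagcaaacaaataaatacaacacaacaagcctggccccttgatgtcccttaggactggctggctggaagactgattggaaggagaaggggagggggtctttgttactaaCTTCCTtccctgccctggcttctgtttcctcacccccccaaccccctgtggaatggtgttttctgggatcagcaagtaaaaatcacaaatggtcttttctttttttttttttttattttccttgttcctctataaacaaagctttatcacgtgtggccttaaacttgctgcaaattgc

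The table held a promoter for 9 of the 10 genes, Ly6c1 included and Pecam1 not, with 10 sequences in all. AGGAAG was found on either strand in those of 5 genes, Eng, Abcb1a, Flt1, Slco1c1 and Ly6c1, and in 35.4% of all 32851 promoters. GGGCGG was found in those of 4 genes, Slc2a1, Kdr, Flt1 and Cldn5, against 35.7% of all promoters. The 4 printed windows carried one or the other, with 2 copies of AGGAAG in Abcb1a, 2 in Eng and 1 in Slco1c1, and 2 copies of GGGCGG in Slc2a1. Their share of G and C was 40.3% in Abcb1a, 65.3% in Slc2a1, 63.3% in Eng and 42.0% in Slco1c1, where the median of all promoters was 52.7%. Of the other letters searched, CGGAAG and ACAATG were in 0 of the 9 genes' promoters (16.9% and 12.6% of all), AACAAT was in that of Tek (10.7%) and CACCC in those of all 9 genes (57.5%). AGGAAG and CGGAAG are both ETS cores, which cannot start at the same base but can overlap in part. The match of letters is a description of these windows only.

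Kdr encodes the main signalling receptor for VEGF on endothelium. Its probe set (1449379_at) had 40.1, 92.5 and 29.0 across the FLX arrays, against 70.7, 104 and 31.5 across the VEH arrays. The groups overlapped, the replicate 2 arrays were the highest and the replicate 3 arrays the lowest in both. Kdr was lower in the FLX array of all 3 pairs of equal number, by -0.82, -0.17 and -0.12 on the log2 scale. Only 3 of its 6 arrays reached the minimum of 50, and pairs 1 and 3 rest in part or whole on values under it. The log2 difference, FLX minus VEH, was -0.37 (SE 0.60, 95% interval -1.83 to 1.09, limma adjusted p = 0.9998, 3 arrays per group).

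Flt1 encodes another VEGF receptor, which binds the ligand tightly and signals weakly. Its 4 probe sets were all under 50 and did not behave alike. The probe set 1451756_at had 31.0, 41.3 and 20.1 across the FLX arrays, against 44.4, 46.2 and 47.2 across the VEH arrays. It was the only 1 of the 16 member probe sets whose groups did not overlap, which over all 45037 probe sets was so for 1.56% in this direction. It was below the minimum, and in the fit with no filter its log2 difference was -0.64 with an unadjusted p of 0.0592 (limma).

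A second Flt1 probe set, 1419300_at, had 26.5, 42.4 and 3.83 across the FLX arrays, and 45.3, 44.9 and 5.77 across the VEH arrays. Here both replicate 3 arrays were low, by -3.13 in FLX and -2.97 in VEH on the log2 scale against the mean of replicates 1 and 2, whereas 1451756_at differed by -0.83 in FLX and 0.06 in VEH arrays. The remaining 2 probe sets lay between 9.83 and 24.4 in all arrays. Tek, the angiopoietin receptor, lay between 7.25 and 10.1 in FLX and between 8.81 and 14.0 in VEH arrays.

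Eng encodes endoglin, a co-receptor for ligands of the transforming growth factor beta family. Its brighter probe set (1417271_a_at) had 215, 233 and 180 across the FLX arrays, against 257, 218 and 235 across the VEH arrays. It was the steadiest of the members tested, with all 6 arrays within 180 to 257. The log2 difference was -0.18 (SE 0.20, 95% interval -0.67 to 0.30, limma adjusted p = 0.9998). The dimmer probe set (1432176_a_at) had 88.0, 78.5 and 43.3 in FLX and 99.9, 99.6 and 51.2 in VEH arrays, lower in all 3 FLX arrays of equal number. The probe sets of Eng thus disagreed on replicate 3, where the brighter differed from replicates 1 and 2 by -0.31 in FLX and -0.01 in VEH arrays and the dimmer by -0.94 and -0.96.

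Cldn5 encodes the claudin that seals the junctions of the barrier. Its probe set (1417839_at) had 81.1, 71.2 and 50.6 across the FLX arrays, against 109, 68.8 and 23.3 across the VEH arrays. The group means were 67.6 ± 15.5 in FLX and 67.1 ± 43.0 in VEH arrays (SD, n = 3 each), with the wider spread in VEH. The log2 difference was 0.25 (SE 0.58, 95% interval -1.18 to 1.67, limma adjusted p = 0.9998) and came from pair 3, with -0.43, 0.05 and 1.12 in pairs 1 to 3. Without both replicate 3 arrays it was -0.19. Pecam1, an adhesion molecule between endothelial cells, lay between 5.60 and 6.00 in FLX and between 5.55 and 7.14 in VEH arrays.

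**Figure D1:**
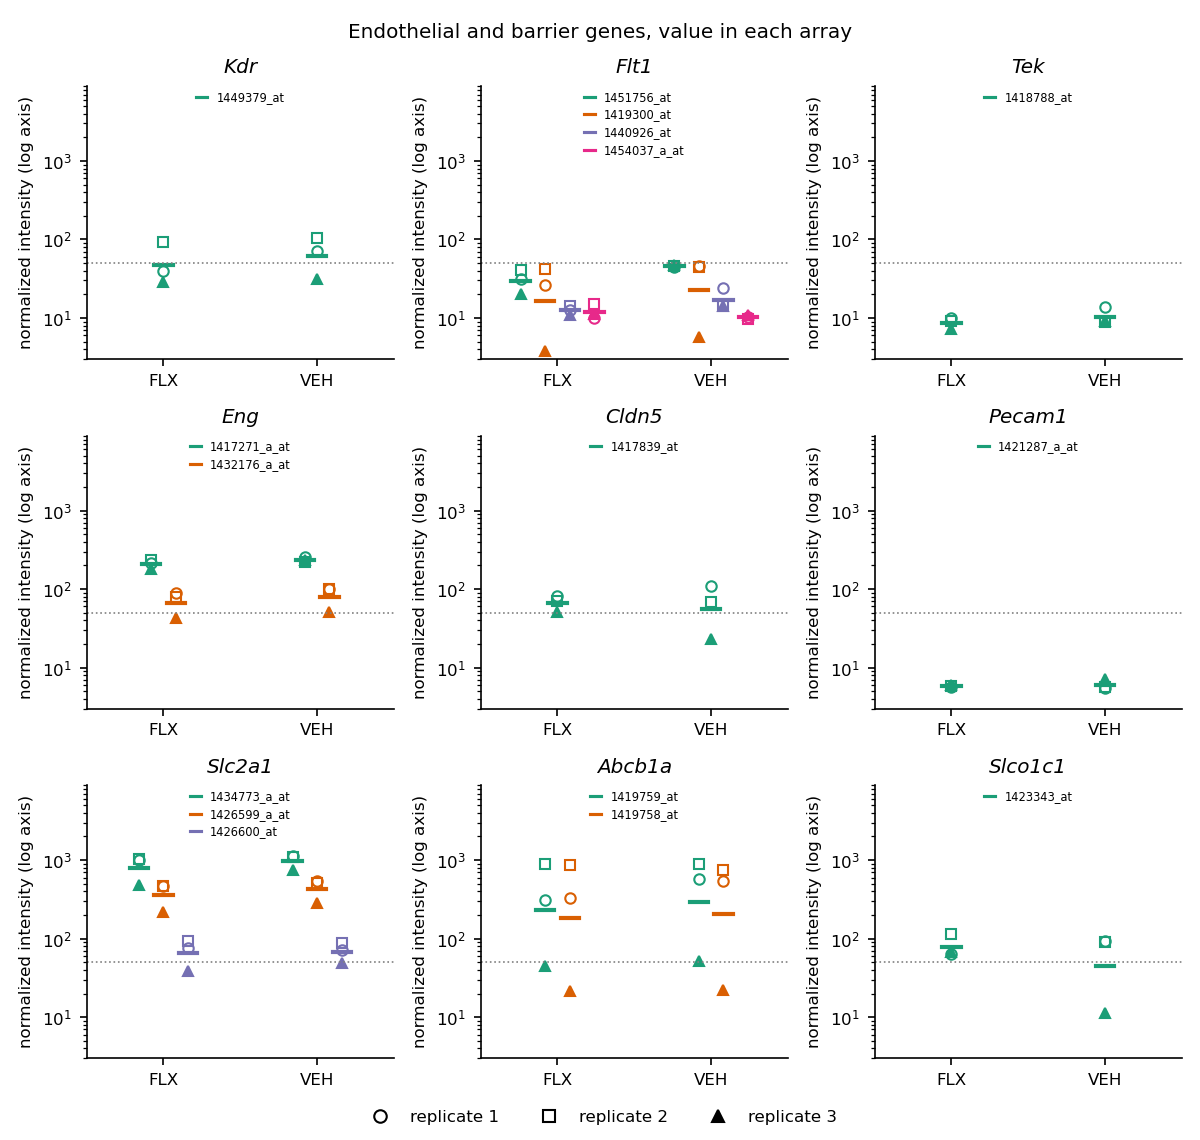
Normalized intensity (log axis) of the 16 probe sets of 9 endothelial and barrier genes in FLX and VEH arrays. Points are single arrays with 1 shape per replicate number, short bars are geometric means of 3 arrays, colours separate the probe sets of a gene, and the dotted line is the minimum of 50. Abcb1a spans from 44.7 to 899 within the FLX arrays (1419759_at), while Pecam1 and Tek stay under 15.

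Slc2a1 encodes the glucose transporter that carries glucose across the barrier, and it is also made by glia. The brightest of its 3 probe sets (1434773_a_at) had 994, 1029 and 480 across the FLX arrays, against 1139, 1101 and 747 across the VEH arrays. Replicate 3 was lowest in both groups, and FLX was the lower array in all 3 pairs. The means were 834 ± 307 in FLX and 996 ± 216 in VEH arrays (SD, n = 3 each), a log2 difference of -0.31 (SE 0.37, 95% interval -1.21 to 0.59, limma adjusted p = 0.9998).

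The other 2 Slc2a1 probe sets gave -0.24 (SE 0.41, 1426599_a_at) and -0.04 (SE 0.41, 1426600_at). The first was lower in all 3 FLX arrays of equal number, and the second was higher in pairs 1 and 2 and lower in pair 3. In all 3 probe sets the replicate 3 array lay below the mean of the others, by -1.07 to -1.15 in FLX and by -0.58 to -0.87 in VEH arrays.

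Abcb1a encodes P-glycoprotein, the efflux pump that keeps many drugs out of the brain. Its probe set 1419759_at had 314, 899 and 44.7 across the FLX arrays, against 574, 884 and 51.7 across the VEH arrays. The second, 1419758_at, had 332, 857 and 21.3 in FLX, against 539, 751 and 22.2 in VEH arrays. The same order of arrays held in both groups and probe sets, with replicate 2 highest and replicate 3 lowest.

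The spread between replicates was far wider than the difference between treatments. Replicate 3 lay below the geometric mean of replicates 1 and 2 in both groups. For 1419759_at it was 11.9-fold lower in FLX and 13.8-fold lower in VEH arrays, and for 1419758_at 25.1-fold and 28.6-fold. The log2 difference of FLX from VEH was -0.35 (SE 1.47, 95% interval -3.92 to 3.22) and -0.19 (SE 1.85, 95% interval -4.70 to 4.32), both with a limma adjusted p of 0.9998. These intervals include the spread of the replicate 3 arrays, and with the replicate number as a block the SE was 0.21 for both probe sets. Whether the probes also match Abcb1b, a close relative of the gene, was not tested.

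Slco1c1 encodes a carrier of thyroid hormone made by brain endothelium and also by astrocytes. Its probe set (1423343_at) had 64.5, 113 and 66.8 across the FLX arrays, against 92.1, 90.8 and 11.1 across the VEH arrays. A single array, VEH replicate 3, stood below the other 5 and under the minimum of 50. The log2 difference of 0.80 (SE 0.86, 95% interval -1.31 to 2.90, limma adjusted p = 0.9998) was the largest positive one of the members tested, with -0.51, 0.32 and 2.58 in pairs 1 to 3. Without the VEH replicate 3 array it was -0.22, and without both replicate 3 arrays -0.10. Of 15 astrocyte markers, 12 were higher in FLX replicate 3 than in VEH replicate 3, with a median log2 difference of 0.31, against 0.14 over all probe sets tested. The largest such differences were those of Aqp4, an astrocyte water channel, and Gfap, an astrocyte filament. Aqp4 had 463 in FLX replicate 3 and 120.2 in VEH replicate 3, and Gfap had 1546 and 547 in these arrays. Both were higher in the FLX array of all 3 pairs. Aldoc, Gjb6 and Slc7a10 were lower in FLX replicate 3, by -0.22, -0.09 and -0.05. Of 12 microglia and macrophage genes tested, 11 were higher in it, with a median of 0.42. Of all 22200 probe sets tested, 13336 were higher in it. The part of astrocytes in the Slco1c1 values was not tested.

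**Figure D2:**
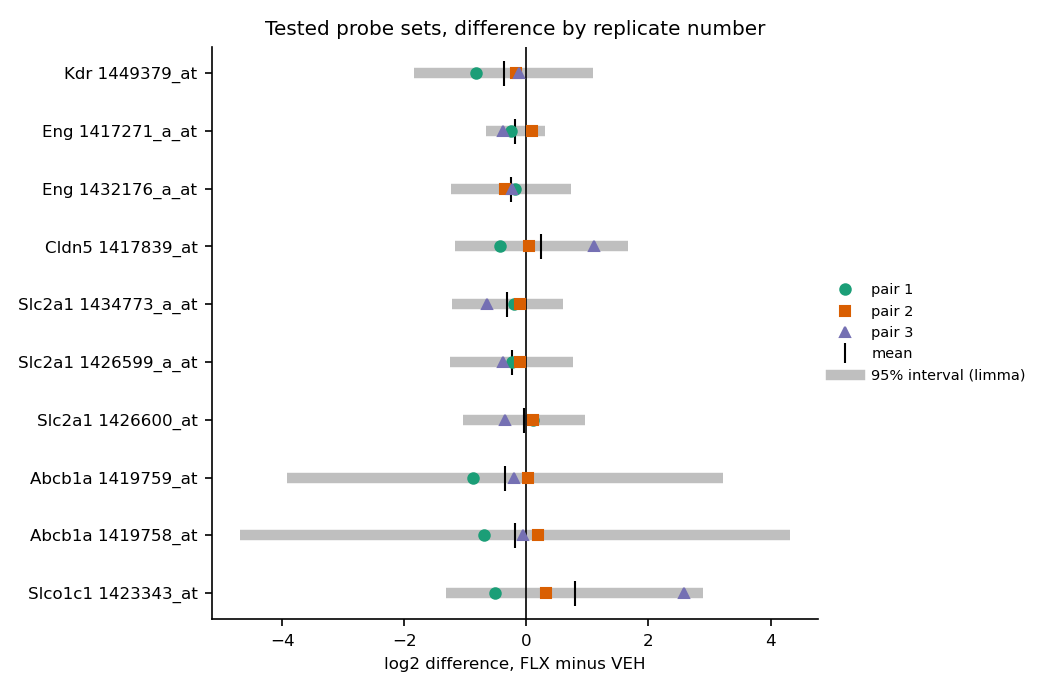
Log2 difference, FLX minus VEH, of the 10 tested probe sets of 6 genes. Coloured points are pairs of arrays with the same replicate number, black ticks are means over 3 pairs and grey bars are 95% intervals from limma. The intervals all include 0, and the pair 3 points of Slco1c1 (2.58) and Cldn5 (1.12) lie apart from the other pairs.

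By direction, 8 of the 10 probe sets had a lower mean log2 value in FLX, against 42.8% of all probe sets tested, and the median over the 6 genes was -0.25, against 0.04 over all probe sets tested. In pair 1, 9 of the 10 were lower in the FLX array (48.3% of all). In pair 2, 4 were lower (51.5% of all), and in pair 3, 8 were (39.9% of all). Lower in all 3 pairs were 4 probe sets, of Kdr, Eng and Slc2a1 (13.7% of all), and higher in all 3 pairs were 0 (19.6% of all). Probe sets of 1 gene share their source and are not independent. Lists of other cell types also differed between the groups in direction. The median was -0.32 over pericyte and smooth muscle genes, with 6 of 7 lower in FLX, and -0.35 over leptomeningeal and fibroblast genes, with 14 of 18 lower. It was 0.24 over neuron genes, with 14 of 15 higher in FLX, and 0.24 over astrocyte genes, with 11 of 15 higher. The part of these cells in the direction of the members was not tested. The direction of the median was not kept when single arrays were left out. Leaving out 1 array in turn gave medians from -0.45, without VEH replicate 3, to 0.24, without FLX replicate 3. These fits had no replicate block, so they leave the groups uneven in replicate number. Their medians thus also carry the replicate 3 difference. Without both replicate 3 arrays the median was -0.17. Without VEH replicate 1 the median was 0.00 and without VEH replicate 2 it was 0.20.

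With the replicate number as a block, 0 of the 10 probe sets passed as well, with adjusted p from 0.647 for Kdr to 0.953 for the Slc2a1 probe set 1426600_at. The standard error of the Abcb1a probe set 1419759_at was then 0.21, against 1.47 without the block, and its adjusted p was 0.660. Without both replicate 3 arrays, 9 of the 10 probe sets of these genes were lower in FLX, against 50.5% of all, the median was -0.17, and 0 passed.

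The FLX replicate 1 array, which was low in pair 1, was also low in most tested markers of other vessel and membrane cells and of microglia and macrophages. The summed level of 15 pericyte and smooth muscle genes was 6495, 9819 and 2816 across the FLX arrays, against 12005, 10314 and 2870 across the VEH arrays. Of the 15, 7 were under 50 in all arrays, namely Abcc9, Cnn1, Higd1b, Kcnj8, Myh11, Ndufa4l2 and Notch3. Bright genes weigh most in the sum, such as Acta2, with 1557 in FLX replicate 1 and 3616 in VEH replicate 1. Of 7 such genes tested, 2 were higher in the FLX array of pair 1, Rgs5 (0.06) and Cspg4 (0.01). The sum of 18 leptomeningeal and fibroblast genes, none under 50 throughout, was 127010, 184470 and 31980 in FLX, against 176790, 177780 and 54102 in VEH arrays. In pair 1 the medians of the tested genes were -0.69 and -0.61 for the pericyte and leptomeningeal lists and -0.47 for the member genes. The pair 1 median was -0.36 for microglia and macrophage genes, 0.41 for neuron genes and 0.01 over all probe sets tested. In pair 2 the pericyte and leptomeningeal medians were -0.12 and 0.11, beside 0.04 for the members. In pair 3 they were -0.42 and -0.58, beside -0.16.

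The replicate 3 arrays were the widest source of difference among the members. Both replicate 3 arrays were below every replicate 1 and 2 array in 8 of the 10 tested probe sets, of 5 of the 6 genes, against 32.4% of all probe sets tested. The exceptions were the brighter Eng probe set and Slco1c1. This split was seen in the data and has no test. Only Abcb1a and Kdr were lower by 1 or more on the log2 scale in both groups, with 3 of the 10 probe sets, against 14.7% of all. The size differed among members, from -0.31 for the brighter Eng probe set to -4.65 for Abcb1a (1419758_at) in FLX arrays, and from -0.01 to -4.84 for the same probe sets in VEH arrays.

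**Figure D3:**
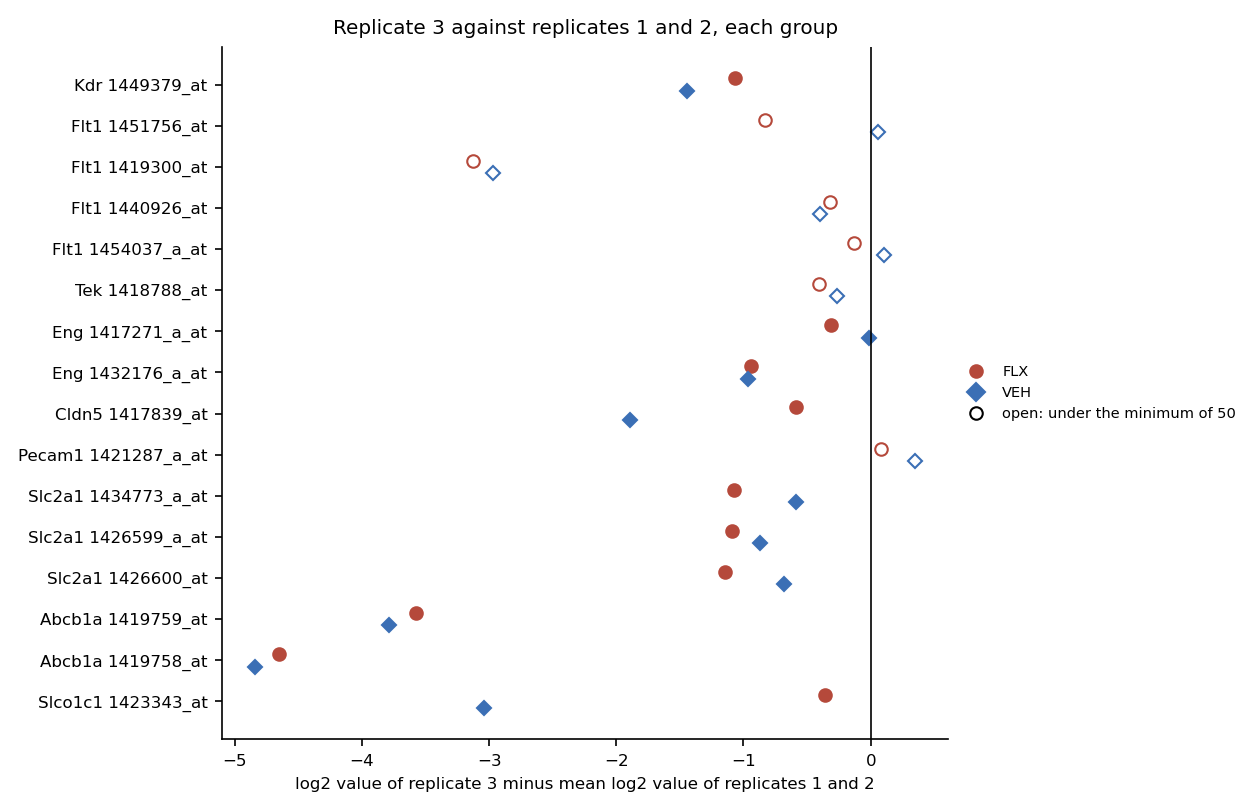
Log2 value of the replicate 3 array minus the mean log2 value of replicates 1 and 2, for each of the 16 member probe sets in FLX (circles) and VEH (diamonds) arrays. Open symbols are probe sets under the minimum of 50. The Abcb1a probe sets lie furthest below 0 in both groups, and Slco1c1 is at -0.36 in FLX and -3.04 in VEH arrays.

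The leptomeningeal genes moved with the members here. All 18 of them were lower in both replicate 3 arrays than in any other array. Their median was -3.72 in FLX arrays and -3.41 in VEH arrays, against -0.83 and -1.67 for the 6 member genes. Pericyte and smooth muscle genes had -2.01 and -2.47, microglia and macrophage genes -0.78 and -1.65 and astrocyte genes -0.11 and -0.59. These lists were not uniform. Of 7 pericyte and smooth muscle genes tested, 5 were lower in both groups, while Rgs5 (1.96 and 1.55) and Cspg4 (0.04 and 0.47) were higher. Of 15 astrocyte genes 7 were lower in both, with Gjb6 at -3.71 and -3.99 but Gfap at 2.06 in each group. Neuron genes had 0.59 and 0.84 and oligodendrocyte genes 1.22 and 0.60. The summed level of 16 microglia and macrophage genes, of which Cd163, Itgam and Trem2 were under 50 throughout, ranged from 2993 to 5560 in FLX and from 2380 to 5641 in VEH arrays. Of the red blood cell genes 5 had a probe set, of which 4 were under 50 in all arrays (Alas2, Hba-a1, Hbb-b2 and Slc4a1).

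**Figure D4:**
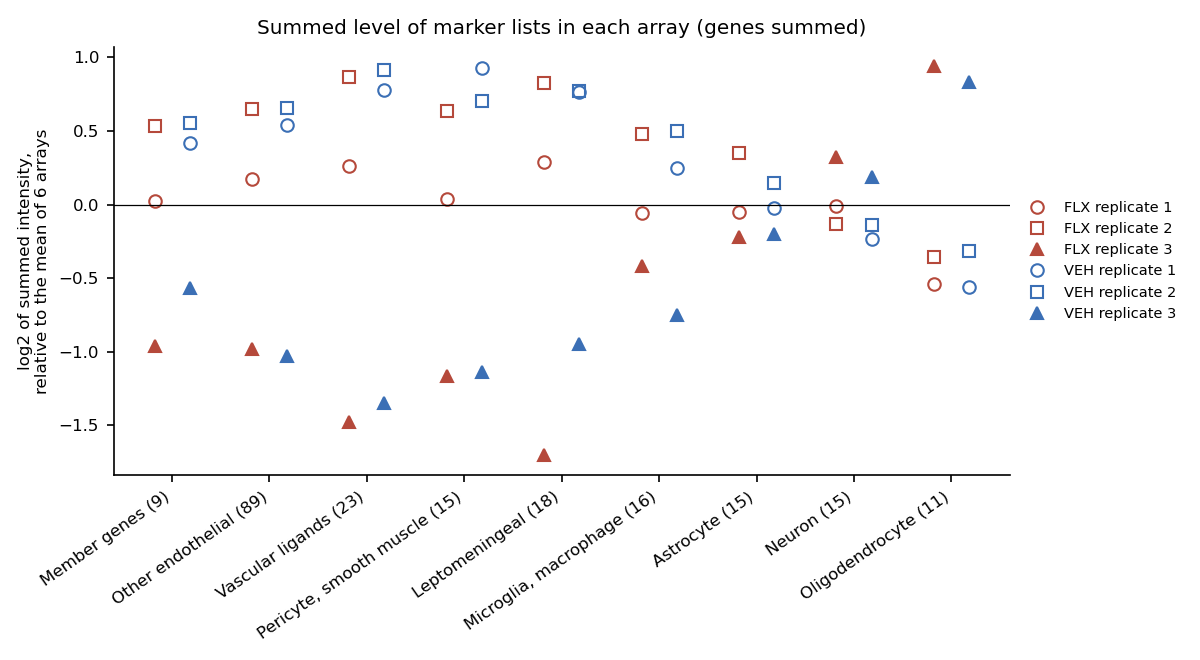
Summed normalized intensity of each marker list in each array, as log2 relative to the mean of the 6 arrays on the log scale, with the number of genes summed in brackets. FLX arrays are left and VEH arrays right within a list, and filled triangles are replicate 3. The member genes are lowest in both replicate 3 arrays, as is every other list except the oligodendrocyte and neuron lists, which are highest there.

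The wider set of endothelial genes had a like replicate pattern, and no treatment difference in it passed the test. Of 92 such genes, 63 were tested, of which 25 had a higher and 38 a lower mean in FLX, with a median of -0.04, and 0 passed limma's threshold or an unadjusted p of 0.05. Both replicate 3 arrays were below all others in 44 of the 63, or 69.8%. By role this was so for 12 of 15 transporters, 11 of 13 surface proteins, 9 of 14 receptors, 9 of 15 transcription factors and 3 of 6 junction genes.

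Transporters had 8 higher and 7 lower. Mfsd2a, a lipid carrier that restrains vesicle traffic in barrier endothelium, had 63.8, 83.1 and 84.4 across the FLX arrays, against 49.3, 70.0 and 43.2 across the VEH arrays. It was higher in all 3 FLX arrays of equal number, though the groups overlapped (log2 difference 0.53, SE 0.26, limma adjusted p = 0.9998). Slc6a6, the taurine transporter, differed by -0.45 (SE 0.42) and was lower in all 3 pairs.

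Receptor genes had 7 higher and 7 lower. S1pr1, the sphingosine phosphate receptor, which astrocytes also express, had 212, 273 and 257 across the FLX arrays, against 175, 238 and 128 across the VEH arrays. It was the higher array in all 3 pairs and the groups overlapped (0.50, SE 0.28). Notch4, a Notch receptor of arteries, had 49.2, 52.1 and 44.6 across the FLX arrays, against 67.7, 52.8 and 53.4 across the VEH arrays. It was the lower array in all 3 pairs and the groups did not overlap, which in this direction was so for 1.79% of all probe sets tested and for 1 of the 63 genes (-0.25, SE 0.20, limma adjusted p = 0.9998). Among surface proteins, with 6 higher and 7 lower, Egfl7, a secreted endothelial protein, differed by 0.12 (SE 0.41) and Cav1, the coat protein of caveolae, by -0.33 (SE 1.24).

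Transcription factor genes had 3 higher and 12 lower, with a median of -0.11. Elk3, an ETS factor, differed by -0.64 (SE 0.48) and was lower in all 3 pairs. Sox18, a factor of endothelial identity, had 119, 100.1 and 86.3 across the FLX arrays, against 106, 98.0 and 17.2 across the VEH arrays. As with Slco1c1 and Cldn5, the VEH replicate 3 array was its lowest, and the log2 difference was 0.84 (SE 0.72). Junction genes had 1 higher and 5 lower, with F11r, a junctional adhesion molecule, at -0.28 (SE 0.29) and Tjp1, a scaffold of tight junctions, at -0.13 (SE 0.33).

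Ligands that act on these receptors, fixed as a list of 24 with 20 tested, had 8 higher and 12 lower, with a median of -0.13, and 0 passed. Wnt7b, a neuronal Wnt that acts on barrier endothelium, had 348, 345 and 368 across the FLX arrays, against 272, 293 and 249 across the VEH arrays. The groups did not overlap, which in this direction was so for 2.55% of all probe sets tested, and the log2 difference was 0.38 (SE 0.18, limma adjusted p = 0.9998). Pgf, a ligand of Flt1, was lower in all 3 pairs (-0.42, SE 0.29).

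The genes outside the lists with the profile nearest to the median of the 6 member genes over the 6 arrays were Rap1b, Cdo1, Decr1, Atl3 and Cyb561d2. Their mean absolute difference from it was 0.05 to 0.06 on the centred log2 scale. The members lay from 0.28 for Slc2a1 to 1.09 for Abcb1a from this profile. The genes outside the lists were picked for being nearest and the members were not, so their distances cannot be compared. The likeness rests on 6 arrays that share the replicate 3 difference.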

How the data were processed

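The deposited values are probe set intensities. Per the submitters' processing notes the authors used GCRMA, in a version and with settings that are unstated in the labels. They are taken as linear because they ran from 1.60 to 76587, with 1 column per array. Per the labels' protocols, ribosomes were immunoprecipitated and 15 ng of RNA went through 2 cycles of amplification before biotin labelling and hybridisation. Of 45101 probe sets, 64 controls were left out, and the platform annotation named 1 gene for 34945 of the rest, several for 932 and none used here for 9160. Probe sets with a mean of 50 or more in at least 1 group (22200) were tested with limma 3.58.1 (R 4.3.3). The fit used log2 values and treatment alone, and its two-sided p-values were adjusted by Benjamini-Hochberg over the whole set. The submitters' list of recommended probe sets was not used. The fit was tested on simulated data.

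The members, gene lists and alternatives were chosen with earlier results of these data known. The naming rule took all members, in each role the 2 tested genes with the smallest unadjusted p, by the brightest probe set, and the 5 genes with the nearest profile. The letters searched in promoters and the 4 promoters printed were chosen after the values were seen. The p-values measure only the spread between arrays, whose number limits the precision.

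Arrays with the same replicate number deviated together from their group means (r = 0.70, 0.84 and 0.87 in pairs 1 to 3, above the limit of 0.1). So did arrays of unlike number, VEH replicate 1 with FLX replicate 2 (0.76) and FLX replicate 1 with VEH replicate 2 (0.64). Because replicate 3 stood apart in both groups, replicates 1 and 2 tend to deviate to the same side whatever their number. The limit thus cannot show a pairing by number for replicates 1 and 2. What a shared number means is not stated. Settings tried were other filters, a pseudocount of 16, median-centred arrays, the replicate block, all probe sets of a gene averaged, and arrays left out. Figures were drawn with matplotlib 3.10.9.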

Additional observations from a re-analysis of the deposited data

How the results depend on the processing

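No member gene, other endothelial gene or probe set at large passed limma's adjusted threshold under any setting run (0 each). At an unadjusted p under 0.05 there were 83 probe sets in all, 364 with no filter, 1764 with the replicate block, 1348 without both replicate 3 arrays and 46 to 227 with 1 array left out. Among the 10 tested member probe sets this count was 0 under each of these, and among the 63 other endothelial genes it was 8 with the block, 3 without both replicate 3 arrays and 1 without VEH replicate 2. The replicate block changed no call. Without both replicate 3 arrays 3 of the 10 turned direction, Cldn5 to -0.19, Slco1c1 to -0.10 and the Slc2a1 probe set 1426600_at to 0.11. With 1 array left out 9 of the 10 turned at least once. The log2 differences then ran from -0.39 to 0.73 for Cldn5, from -0.85 to 0.011 for Kdr, from -0.22 to 1.31 for Slco1c1, from -0.58 to 0.058 for Eng 1432176_a_at, from -0.51 to 0.047, from -0.53 to 0.12 and from -0.31 to 0.34 for Slc2a1 1434773_a_at, 1426599_a_at and 1426600_at, and from -1.61 to 0.84 and from -1.80 to 1.36 for Abcb1a 1419759_at and 1419758_at. Eng 1417271_a_at kept its direction, from -0.26 to -0.08. For these turns the cause was not tested. The other settings turned no member probe set that they held, which was 5 of the 10 for a mean of 100 or more and those of Eng, Slc2a1 and Abcb1a alone for the average over a gene's probe sets. Values under 50, which hold all probe sets of Flt1, Tek and Pecam1, are below the submitters' minimum. So are single arrays of tested probe sets, among them VEH replicate 3 of Slco1c1 (11.1) and Cldn5 (23.3). Replicate 3 was also under it for Kdr (29.0 in FLX, 31.5 in VEH) and Abcb1a 1419758_at (21.3 and 22.2). FLX replicate 1 of Kdr (40.1) was under it too. The differences that use these arrays rest in part on such values. With the pseudocount of 16 the log2 difference was 0.49 for Slco1c1 and 0.14 for Cldn5, against 0.80 and 0.25.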
